A study of Mus musculus with 3 samples.

Results

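The BCL2 family holds the genes that set the threshold of the mitochondrial death pathway. The 10 genes described here are Bcl2, Bcl2l1, Mcl1, Bax, Bak1, Bcl2l11, Bbc3, Pmaip1, Bid and Bad, taken by gene name from a table of 51826 genes, and each was present on 1 row. The list was drawn up by name with earlier results of these libraries known, among them the level of Bcl2l1 after Fn1 knockdown, so the values below are a description. RNA was profiled in ST2 cells, a stromal line from mouse bone marrow with osteoblast and adipocyte potential. The control cells received the empty vector plus control siRNA. For NELL2 overexpression the vector was replaced by the NELL2 construct, and for Fn1 knockdown the control siRNA was replaced by siRNA against Fn1. All siRNAs were used at 30 nM with a lipid reagent, the cells were grown with serum, and there was 1 library per group. The transfections were transient, and how many of the cells took up plasmid or siRNA was not given in the sources used here.

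Apoptosis through mitochondria is decided by binding between proteins of this family. Pro-survival members (BCL2, BCL-XL from Bcl2l1, MCL1) hold the effectors BAX and BAK in check, and BH3-only members (BIM from Bcl2l11, PUMA from Bbc3, NOXA from Pmaip1, BID, BAD) occupy the pro-survival proteins or act on the effectors. Free effectors permeabilise the outer mitochondrial membrane and release cytochrome c. In anchored cells such as stromal cells and osteoblasts, contact with the matrix through integrins, FAK and AKT is known to restrain this pathway, in part through phosphorylation of BAD, and its loss leads to death by detachment (anoikis). These libraries measured RNA only, so neither the binding nor the phosphorylation was observed.

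All levels are FPKM, fragments per kilobase of transcript, scaled to the library's mapped fragments, which allows genes of different length to be compared. Depth was estimated at 23000000 (control), 23700000 (NELL2 overexpression) and 24200000 (Fn1 knockdown) fragments. The targeted genes moved as labelled, Nell2 from 0.640 to 326 FPKM with the construct and Fn1 from 2802 to 137 FPKM with its siRNA. All 8 stromal markers examined were at 7.40 FPKM or more, with Col1a1 between 1352 and 1601 FPKM. Of 7 markers of leukocytes, endothelium and epithelium, all but Cd68 were at 0.950 FPKM or less, Ptprc and Pecam1 at 0.121 FPKM or less and Epcam listed at 0. Cd68, a lysosomal gene of macrophages, was at 4.08 FPKM in the control, 3.54 with NELL2 and 1.57 with Fn1 siRNA, and its part in the results was not tested.

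Bcl2l1 was the member with the largest difference, and the sequence before its annotated starts is therefore shown. RefSeq (GRCm38.p6) gives 3 windows for this gene, each from 250 bases before a transcription start to 50 bases after it, all on the minus strand. The first lies at chr2:152828440-152828739, the second at chr2:152830668-152830967 and the third at chr2:152831679-152831978. The third holds the outermost 5′ end of the gene in GENCODE. Capitals mark matches on either strand to 6 motifs that were chosen after the values were seen: ETS (CCGGAAG), STAT (TTCNNNGAA), NRF2 (TGACNNNGC), the cAMP response element (TGACGTCA), forkhead (TGTTTAC) and the NF-kB consensus.
Bcl2l1 window 1: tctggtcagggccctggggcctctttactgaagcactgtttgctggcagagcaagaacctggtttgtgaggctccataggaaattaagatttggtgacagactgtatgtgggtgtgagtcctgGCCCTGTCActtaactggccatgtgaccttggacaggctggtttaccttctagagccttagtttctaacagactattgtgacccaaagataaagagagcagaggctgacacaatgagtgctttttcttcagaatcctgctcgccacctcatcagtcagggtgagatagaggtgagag
Bcl2l1 window 2: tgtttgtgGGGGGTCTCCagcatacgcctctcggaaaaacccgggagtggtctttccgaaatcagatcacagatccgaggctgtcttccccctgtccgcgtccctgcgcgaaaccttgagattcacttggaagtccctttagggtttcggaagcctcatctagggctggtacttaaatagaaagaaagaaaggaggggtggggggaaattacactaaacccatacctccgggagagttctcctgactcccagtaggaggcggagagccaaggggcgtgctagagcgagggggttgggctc
Bcl2l1 window 3: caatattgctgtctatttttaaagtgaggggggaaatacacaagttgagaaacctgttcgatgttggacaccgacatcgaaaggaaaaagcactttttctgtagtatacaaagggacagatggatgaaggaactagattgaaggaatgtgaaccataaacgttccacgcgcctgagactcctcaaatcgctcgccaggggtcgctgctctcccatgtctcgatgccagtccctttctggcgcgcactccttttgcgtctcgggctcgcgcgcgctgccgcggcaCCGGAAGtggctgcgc

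The first window held 1 NRF2 match, the second 1 NF-kB match and the third 1 ETS match near the start. Such matches were common, since among 32851 windows of the same length 12.4% held the NRF2 motif, 8.46% the NF-kB motif and 8.86% the ETS motif. Of the 10 members, 9 had windows in the table, 15 in all. The ETS motif was found in 3 of these members (Bcl2l1, Mcl1 and Bcl2l11), the NRF2 motif in Bcl2l1 alone, and the NF-kB motif in Bcl2l1 and Bbc3. The forkhead motif was found in Bcl2l11 and Bbc3 (3.65% of all windows). No member's window held the STAT motif (8.30% of all windows) or the cAMP response element (1.79%). A member was counted if any of its windows matched, whereas the percentages are per window. The counts and percentages are therefore not alike, and nothing is read from counts this small. FPKM per gene does not tell which of the 3 starts was in use.

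**Figure D1:**
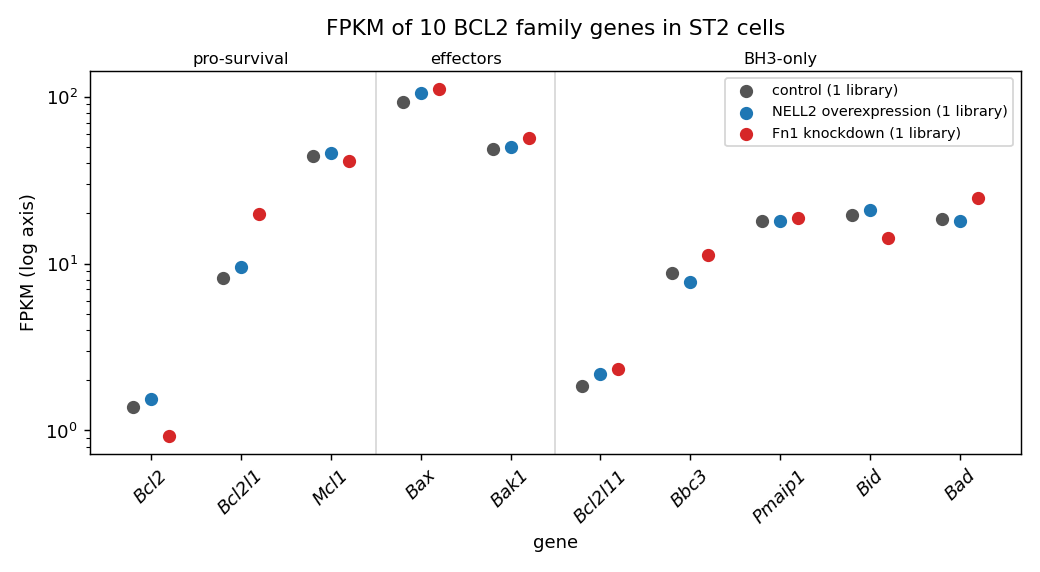
FPKM on a log axis of the 10 members in each of the 3 libraries, 1 point per library, grouped by role. The levels ranged from 0.922 FPKM for Bcl2 after Fn1 knockdown to 112 FPKM for Bax in the same library, and Bcl2l1 stands out with the Fn1 knockdown point at 19.9 FPKM above 8.24 and 9.59 FPKM.

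In control ST2 cells, Bax, Mcl1 and Bak1 had the highest levels of the 10 members. Bax was at 93.5 FPKM and Bak1 at 48.7 FPKM, together 54.1% of the summed FPKM of the 10 members. Of the 3 pro-survival members, Mcl1 was at 44.2 FPKM, Bcl2l1 at 8.24 FPKM and Bcl2 at 1.38 FPKM. Mcl1 thus held 82.1%, Bcl2l1 15.3% and Bcl2 2.56% of the sum of these 3. The pro-survival gene Bcl2l2, which is not among the 10, was at 15.4 FPKM, above Bcl2l1. Of the BH3-only members, Bid at 19.7, Bad at 18.6 and Pmaip1 at 18.0 FPKM lay close together, with Bbc3 lower at 8.78 FPKM and Bcl2l11 lowest at 1.84 FPKM. With 1 library, the order among Bid, Bad and Pmaip1 cannot be separated from the spread between cultures, which was not measured. In the NELL2 overexpression library the order of the 10 genes by FPKM was Bax, Bak1, Mcl1, Bid, Pmaip1, Bad, Bcl2l1, Bbc3, Bcl2l11 and Bcl2. In the Fn1 knockdown library Bad and Bcl2l1 stood above Pmaip1, and Bid came below these 3.

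The NELL2 library was set against the control first. A gene was called when log2(FPKM + 1) differed by 1 or more, which is 2-fold on this scale, and FPKM was 1 or more in either library. No p-value was computed, as there were no replicates. None of the 10 members was called, against 0.652% of 12572 genes tested, and none reached 1.5-fold, against 2.59%. The median log2 difference of the members was 0.071, beside 0.0072 over all genes, with 8 members higher and 2 lower. Values close to 0 can take either sign, and 52.3% of all genes were higher.

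After Fn1 knockdown, 1 of the 10 members was called, Bcl2l1, against 1.23% of 12574 genes tested. At 1.5-fold it was again Bcl2l1 alone, against 6.24% of the genes. The median difference of the members was 0.23, beside -0.0028 over all genes, with 7 members higher and 3 lower. Of all genes 49.5% were higher, and values close to 0 can take either sign. The standard deviation of the difference over all genes was 0.34, and the other 9 members differed by 0.43 or less in either direction. Both comparisons share the control library, so its own error enters each of them.

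**Figure D2:**
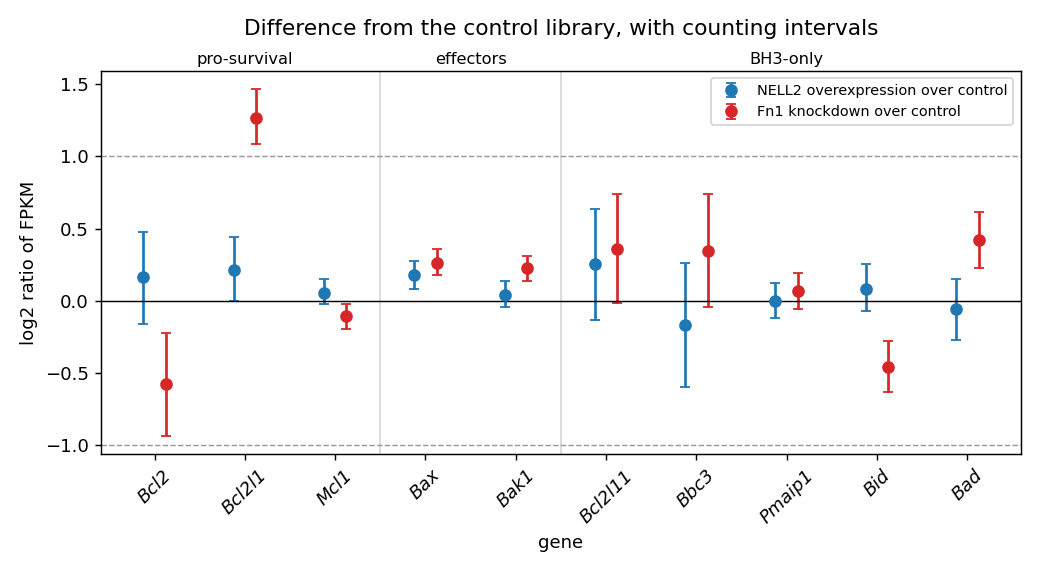
Log2 ratio of FPKM over the control for each member, with NELL2 overexpression in blue and Fn1 knockdown in red. Bars are exact 95% binomial intervals from estimated fragments and cover counting error only, and dashed lines mark 2-fold. Bcl2l1 after Fn1 knockdown lies above the upper line, the red bars of Bcl2, Mcl1 and Bid lie below 0, and those of Bax, Bak1 and Bad lie above 0.

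The pro-survival members differed from each other. Bcl2l1 (ENSMUSG00000007659.18, GRCm38 chromosome 2, 152780668 to 152831728, minus strand) encodes BCL-XL, which sequesters BAX, BAK and BH3-only proteins, and also a short splice form that promotes death. Its level was 8.24 FPKM in the control, 9.59 in the NELL2 and 19.9 in the Fn1 knockdown library. These correspond to about 309, 372 and 786 fragments, so the rise after Fn1 knockdown stood well outside counting error. The FPKM ratio to the control was 2.41 after knockdown (95% counting interval 2.12 to 2.77) and 1.16 with NELL2 (0.999 to 1.36). The counting interval uses fragments estimated from FPKM and transcript length, is approximate, and does not include the spread between cultures. On the log2(FPKM + 1) scale the rise was 1.18, and 95 of the 12574 genes tested (0.756%) differed by more. With a pseudocount of 5 FPKM in place of 1 the difference was 0.911, under the cutoff. The values do not separate the long from the short splice form, and no other gene has exons over it on the same strand.

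Bcl2 (ENSMUSG00000057329.7, chromosome 1, 106538178 to 106714274, minus strand), the founding pro-survival gene, was less abundant and lowest after Fn1 knockdown. It was listed at 1.38 FPKM in the control, 1.54 with NELL2 and 0.922 after knockdown, about 159, 183 and 112 fragments. After knockdown it was at 66.9% of the control (counting interval of the ratio 0.521 to 0.858), a log2(FPKM + 1) difference of -0.31 that was not called and that 23.8% of all genes exceeded in size. Mcl1 (ENSMUSG00000038612.16, chromosome 3, 95658788 to 95663176, plus strand) encodes a short-lived protein with a high turnover. Its FPKM was 44.2, 46.2 and 41.0, with ratios to the control of 1.04 (0.984 to 1.11) and 0.927 (0.872 to 0.984). The Fn1 knockdown library was thus the highest of the 3 for Bcl2l1 and the lowest for Bcl2 and Mcl1.

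As a sum, the pro-survival transcripts moved less than Bcl2l1 itself. The summed FPKM of Bcl2, Bcl2l1 and Mcl1 was 53.8 in the control, 57.3 with the NELL2 construct and 61.8 with Fn1 siRNA, the last at 115% of the control. Within that sum the share of Bcl2l1 was 15.3%, 16.7% and 32.2%, that of Mcl1 82.1%, 80.6% and 66.3%, and that of Bcl2 2.56%, 2.69% and 1.49%. Without Mcl1 the log2 ratio of the sum after knockdown was 1.11 in place of 0.20, so the size of the sum's difference rests on the inclusion of Mcl1. Mcl1 was 5.36 times as abundant as Bcl2l1 in the control, 4.81 times with NELL2 and 2.06 times after Fn1 knockdown.

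Neither effector was called in any comparison, and both had ratios above 1 after Fn1 knockdown. Bax (ENSMUSG00000003873.11, chromosome 7, 45461697 to 45466898, minus strand) encodes the effector that moves from the cytosol to mitochondria. Its FPKM was 93.5 in the control, 106 in the NELL2 and 112 in the Fn1 knockdown library, with ratios of 1.13 (1.06 to 1.21) and 1.20 (1.13 to 1.28). Bak1 (ENSMUSG00000057789.14, chromosome 17, 27019810 to 27029009, minus strand) encodes the effector resident in the mitochondrial membrane. It was at 48.7, 50.3 and 56.8 FPKM, with ratios of 1.03 (0.970 to 1.10) and 1.17 (1.10 to 1.24). For both genes the knockdown library was the highest and its counting interval lay above 1, yet 30.0% and 36.8% of all genes differed by more from the control. Exons of Gm45808 overlap Bax on the same strand, but that gene was at 0.273 FPKM or less.

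**Figure D3:**
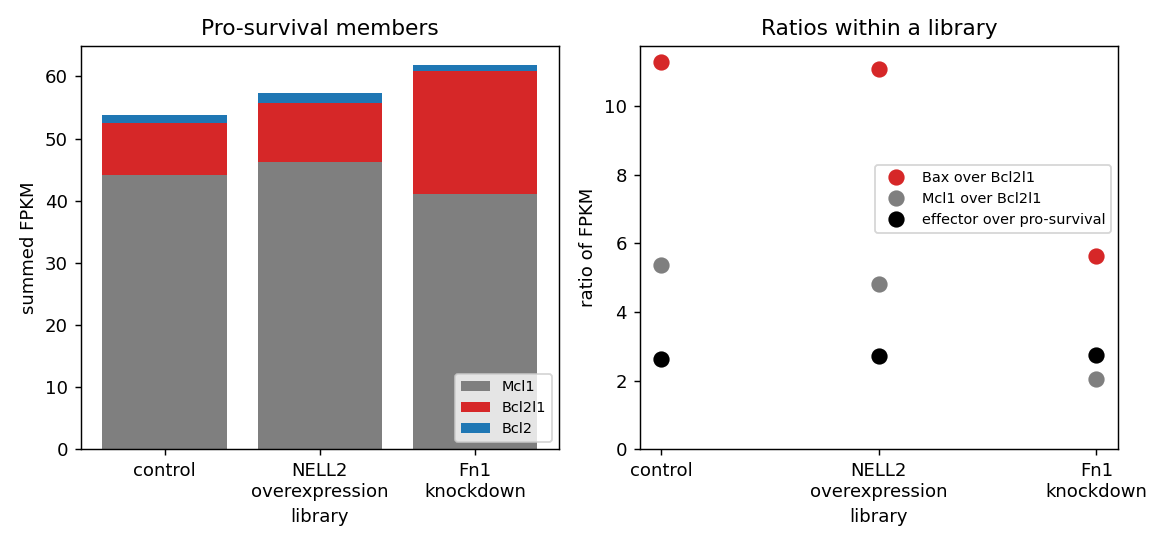
Left, summed FPKM of the 3 pro-survival members in each library, stacked by gene, with 1 library per bar. Right, ratios of FPKM within each library: Bax over Bcl2l1 was 11.3, 11.1 and 5.64, and Mcl1 over Bcl2l1 5.36, 4.81 and 2.06, whereas effector over pro-survival FPKM was 2.64, 2.73 and 2.74.

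The balance of effector to pro-survival RNA depended on which pro-survival genes were summed. Over the members alone, the ratio of the effector sum to the pro-survival sum was 2.64 in the control, 2.73 in the NELL2 and 2.74 in the Fn1 knockdown library. With Bcl2l2, a pro-survival gene outside the 10, added to the sum, it was 2.05, 2.48 and 2.45, higher in both treated libraries. Bax over Bcl2l1, in contrast, was 11.3, 11.1 and 5.64, and Bax over Bcl2 was 67.9, 68.9 and 122. Which of these ratios is used therefore decides the direction after Fn1 knockdown. The ratios are of RNA and say nothing of the proteins.

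Among the BH3-only members, Bid and Bad differed from the control in opposite directions after Fn1 knockdown. Bid (ENSMUSG00000004446.12, chromosome 6, 120891930 to 120916853, minus strand) encodes the protein that is cleaved by caspase-8 and links death receptors to mitochondria. Its FPKM was 19.7 in the control, 20.9 with NELL2 and 14.3 after knockdown. The knockdown value was 72.8% of the control (counting interval of the ratio 0.644 to 0.822), and the log2 difference of -0.43 was exceeded in size by 12.8% of all genes. Bad (ENSMUSG00000024959.14, chromosome 19, 6941861 to 6951899, plus strand) encodes the BH3-only protein that AKT phosphorylates and thereby inactivates. Its FPKM was 18.6, 17.9 and 24.9, with 134% of the control after knockdown (1.17 to 1.53) and a log2 difference of 0.40 that 14.8% of all genes exceeded. Neither gene was called, and with NELL2 overexpression their ratios of 1.06 (0.950 to 1.19) and 0.962 (0.829 to 1.11) included 1.

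The other BH3-only members had counting intervals that included 1 in both comparisons with the control. Pmaip1 (ENSMUSG00000024521.8), which encodes the MCL1-binding protein NOXA, was the most even of the 10, at 18.0, 18.0 and 18.8 FPKM. Bbc3 (ENSMUSG00000002083.13, chromosome 7, 16308393 to 16318205, plus strand), which encodes the p53-induced protein PUMA, was at 8.78, 7.81 and 11.2 FPKM, from only about 98, 90 and 131 fragments. Its ratios were 0.890 (0.660 to 1.20) and 1.27 (0.970 to 1.67). Bcl2l11 (ENSMUSG00000027381.16, chromosome 2, 128126038 to 128162547, plus strand), which encodes BIM, a target of FOXO factors, was at 1.84, 2.19 and 2.35 FPKM, with ratios of 1.19 (0.912 to 1.55) and 1.28 (0.991 to 1.67). The BH3-only sum was 66.9, 66.8 and 71.6 FPKM.

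The libraries of Fn1 knockdown and NELL2 overexpression were also compared directly, without the control. No member was called, against 1.29% of 12596 genes, although Bcl2l1 came close with a log2 difference of 0.98 and an FPKM ratio of 2.08 (1.83 to 2.35). It was called with a pseudocount of 0.1 FPKM (1.045) and with median-of-ratios scaling (1.003). The share of all genes called was not computed for these settings. At 1.5-fold Bcl2l1 was the only member, against 6.40% of the genes. Bid was at 68.6% (0.609 to 0.773), Bcl2 at 59.9% (0.470 to 0.764) and Bad at 139% (1.22 to 1.60) of the NELL2 overexpression level. Bbc3 was at 143%, with an interval of 1.08 to 1.89. The members lower after knockdown than with NELL2 were Bcl2, Mcl1 and Bid, and the other 7 were higher. Of all genes 48.1% were higher in this comparison.

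The genes whose pair of differences from the control lay nearest to that of Bcl2l1 were sought among the 8939 genes that reached 5 FPKM in at least 1 library. They were Slc7a11 (2.27, 2.75 and 6.24 FPKM), which encodes the cystine transporter, Procr (16.2, 18.6 and 39.2 FPKM), the endothelial protein C receptor, and Lsm12 (7.29, 8.88 and 17.6 FPKM). Their Euclidean distances from Bcl2l1 over the pair of log2 differences were 0.031, 0.047 and 0.057. Slc7a11 reached 5 FPKM only in the Fn1 knockdown library. The value that admitted it to the search is thus also one that matched it to Bcl2l1. With 3 libraries such nearness is a weak description.

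Other genes of apoptosis were taken from 5 lists with 57 genes in the table, of which 47 passed the filter. With NELL2 overexpression 1 of the 47 (2.13%) was called, lower, against 0.652% of all genes tested. After Fn1 knockdown 2 (4.26%) were called, 1 higher and 1 lower, against 1.23%, and between the treated libraries 1 (2.13%) was called, higher after knockdown, against 1.29%. These shares rest on 1 or 2 genes and nothing is read from them. Their median log2 differences were 0.054, 0.012 and -0.023, beside 0.0072, -0.0028 and -0.0096 over all genes.

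Of 16 other BCL2 family genes, 6 passed the filter, and Bcl2l2 was called in both comparisons with the control. Bcl2l2 (ENSMUSG00000089682.10, chromosome 14, 54883377 to 54888234, plus strand) encodes the pro-survival protein BCL-W. It fell from 15.4 FPKM to 5.72 FPKM in the NELL2 library and to 7.16 FPKM in the Fn1 knockdown library, about 735, 282 and 360 fragments, with log2 differences of -1.29 and -1.01 (-0.929 and -0.747, under the cutoff, with a pseudocount of 5 FPKM). With median-of-ratios scaling the difference after Fn1 knockdown was -0.995, also under the cutoff. The control library is the one that stands apart, and it enters both comparisons. Gm20521, a gene whose exons run from Bcl2l2 into the neighbouring Pabpn1, was at 6.96, 2.71 and 2.32 FPKM, and Pabpn1 at 38.2, 34.2 and 36.7 FPKM. The summed fragments of Bcl2l2 and Gm20521 were at 37.5% and 43.7% of the control, close to the 37.1% and 46.4% of Bcl2l2 alone, and with Pabpn1 added at 61.5% and 67.8%. With Bcl2l2 added, the pro-survival sum was 69.3, 63.0 and 69.0 FPKM, so that the excess after Fn1 knockdown was no longer present.

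Among the others of that list, Bok, a BAX relative, was at 14.7, 9.74 and 13.9 FPKM, and Bcl2l13, a mitochondrial family member, at 9.57, 7.61 and 12.4 FPKM. Neither was called. Bcl2a1a to Bcl2a1d (genes of blood cells), Bcl2l10, Bcl2l14, Bcl2l15, Bik and Hrk were at 0.155 FPKM or less, and Bmf at 0.485 FPKM or less.

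Of the 5 inhibitors of apoptosis, Xiap, which encodes a direct inhibitor of caspases, was called after Fn1 knockdown. It was at 4.54, 3.60 and 10.1 FPKM, with a ratio to the control of 2.22 (2.03 to 2.43), and its log2(FPKM + 1) difference only just reached the threshold of 1 and was 0.660 with a pseudocount of 5 FPKM. Against NELL2 overexpression its difference was 1.27, and 0.810, under the cutoff, with that pseudocount. Birc5 (survivin), which is made in dividing cells, was at 31.3, 27.2 and 21.6 FPKM, and Birc2 at 5.76, 6.80 and 6.33 FPKM.

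Of 13 genes for caspases, the apoptosome and factors released from mitochondria, and of 9 genes of the death receptor pathway, none was called in any comparison. With 0.652%, 1.23% and 1.29% of all genes called, nothing is read from these counts. Aifm1, a mitochondrial flavoprotein, was at 14.9, 16.6 and 18.9 FPKM. Casp9, the initiator caspase of the apoptosome, was picked after its values were seen. It was at 1.56, 3.47 and 3.53 FPKM with ratios of 2.22 (1.59 to 3.10) and 2.26 (1.63 to 3.16), but at about 54 fragments in the control it stayed under the cutoff on the FPKM + 1 scale. Cflar, which encodes the caspase-8 inhibitor c-FLIP, had the largest difference of the receptor list after Fn1 knockdown, at 9.57, 9.93 and 14.9 FPKM. Fas had the largest with NELL2 overexpression, at 8.54, 10.2 and 7.03 FPKM.

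None of the 14 regulators of BCL2 family genes and proteins was called in the 3 comparisons, a count too small to set against the 0.652%, 1.23% and 1.29% of all genes. Trp53, whose product induces Bax, Bbc3 and Pmaip1, was at 70.3, 73.1 and 71.9 FPKM. Usp9x, which encodes a deubiquitinase of MCL1, was at 25.3, 26.0 and 31.5 FPKM, and Huwe1, which encodes an MCL1 ubiquitin ligase, at 27.3, 22.7 and 22.1 FPKM. In bulk RNA, a lower level in every cell and the loss of cells rich in a transcript cannot be told apart.

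**Figure D4:**
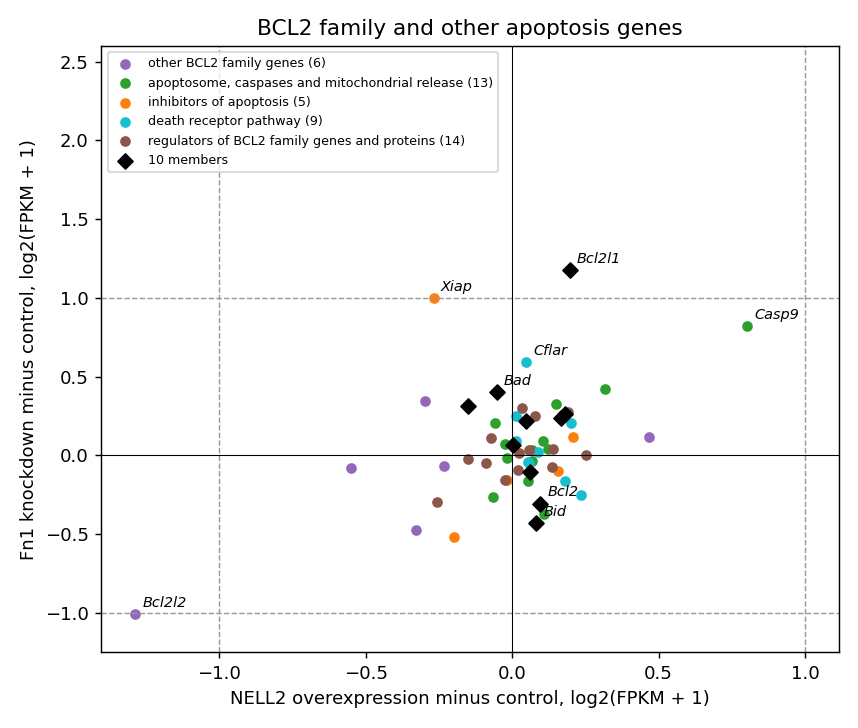
Difference in log2(FPKM + 1) from the control for the 10 members (diamonds) and 47 other apoptosis genes (circles, coloured by list with the number of genes), with NELL2 overexpression on the x axis and Fn1 knockdown on the y axis. Dashed lines mark 2-fold, both axes share the control library, and Bcl2l1 (0.20 and 1.18) and Bcl2l2 (-1.29 and -1.01) lie past a line with Xiap on one.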

How the data were processed

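Polyadenylated RNA was sequenced by the authors as 150 bp paired ends on an MGISEQ-2000 and mapped with HISAT2, with GRCm38 given in the submitters' processing notes; HISAT2's version, the annotation, strand use and the FPKM program are not given in the sources used here. The deposited values are the authors' FPKM, 1 column per library. The study's methods name DESeq normalization, which was not applied here. Members and lists were chosen with earlier results of these data known. Names were matched to GENCODE M21 (47465 rows, 91.6%). Depth and fragments were estimated from the low-end mode of FPKM times length over genes with 1 transcript (600 bases minimum), and from the median coding transcript length. Ratios carry exact binomial (Clopper-Pearson) 95% intervals. Only depth estimation, calling and counting intervals were tried on simulated counts. The simulation used the same annotated lengths and held no spread between cultures, so it could not test either. Named were the members, Nell2 and Fn1, list genes called or of largest difference at 5 FPKM or more, and the 3 genes nearest to Bcl2l1; other genes are named for context only. One list gene that this rule picks is not reported here. Analyses used Python 3.11.15, numpy 2.4.6, pandas 2.3.3 and scipy 1.17.1.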

Additional observations from a re-analysis of the deposited data

How the results depend on the processing

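The spread between cultures is unknown, and no library could be left out. No paired analysis was possible because no group had replicates. The call of Bcl2l1 after Fn1 knockdown was lost with a pseudocount of 5 FPKM, where its difference was 0.911 and 0 members were called. Against NELL2 overexpression that pseudocount gave Bcl2l1 0.771, whereas a pseudocount of 0.1, the 1.5-fold cutoff and median-of-ratios scaling each gave 1 called member. Of all genes 6.40% were called at 1.5-fold, and the shares under the changed pseudocounts and scaling were not computed. Sums without their most abundant member had log2 ratios of 0.210 (pro-survival) and 0.049 (effector) with NELL2 overexpression, 1.114 (pro-survival) and 0.278 (BH3-only) after Fn1 knockdown, and 0.904, 0.176 and 0.318 for pro-survival, effector and BH3-only members between the treated libraries. Settings added after seeing the data put Bcl2l2 under 2-fold with a pseudocount of 5 in both comparisons (-0.929 and -0.747) and with median-of-ratios scaling after Fn1 knockdown (-0.995), and Xiap after Fn1 knockdown with that pseudocount (0.660, and 0.810 against NELL2 overexpression) and without mitochondrial genes (0.993). Pmaip1 with NELL2 overexpression, at 0.003, changed sign under both scalings. Of 207 recomputed values, 188 kept their count or moved by less than the distance from the middle to the end of the log2 counting interval. For medians, the median of this distance over the members was used. Of 144 single gene values under other settings, 9 changed side of 2-fold, some of them among the 188.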
